A study of Drosophila melanogaster with 23 samples.

Results

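Cpr72Ec is a cuticular protein gene of Drosophila melanogaster on chromosome arm 3L (Entrez gene 39816). Per the platform annotation it is the gene of 1 of the 6101 features on the arrays, and of 1 of the 1943 features that carry a single gene symbol. It was selected on its large range among strains, so its strain levels and their range are given below as a description without a test. A permutation of origins over those levels is the one test made on them, since the range is the same whichever strain carries which origin. The study compared adult males of 8 strains on 23 spotted cDNA arrays, each with RNA in 2 colours: 4 Zimbabwe strains (Zimbabwe30, Zimbabwe53, Zimbabwe29 and Zimbabwe2) and 4 others (Canton S, Oregon R, Hikone R and St Louis). Canton S and Oregon R are long-kept laboratory stocks. Males of every strain were reared at 25 °C without a light cycle and aged for 3 to 4 days apart from females, and neither a treatment nor an engineered allele is named for any of them. All extractions of a strain, each from 8 to 12 flies, went into a single pool. Repeated arrays of a pair of strains therefore share their RNA, and errors cover the spread between arrays, not between flies, except where a spread between strains is named.

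Insect cuticle is a composite of chitin fibres and proteins laid down by the epidermis. The Cpr genes encode the largest family of its proteins, which carry the Rebers and Riddiford domain that binds chitin. Cpr72Ec is known as a protein of the corneal lens, the clear cuticle over each facet of the compound eye, together with Crystallin, Retinin and Cpr66D. Whole males were extracted, so fewer cells that make a transcript and less transcript per cell cannot be told apart. A ratio between channels also holds no level, so the presence of head, eye or epidermis in the RNA could not be checked from marker levels.

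The arrays gave values for 3272 to 4987 features each. The deposited values are log ratios of unstated base, read here as log10 and converted to log2. As log10, the largest deposited value is a ratio of 36.4. As log2 it would be a ratio of 2.95, and the range of Cpr72Ec among strains would be 1.20 log2 instead of 3.99. The channel that forms the numerator is not stated. Arrays of a pair with the channels exchanged correlated negatively across features in all 8 such pairs (r between -0.81 and -0.29), so in these pairs the ratios had the same channel on top. For the 5 pairs on a single array the same was assumed. Which end of the scale means more transcript is therefore unknown. Signs below follow the first channel, and turning every sign round would describe the same data. The SD of log2 ratios over features ranged over 0.28 to 0.52 on arrays of different strains, and was 0.14 and 0.17 where both channels held 1 strain.

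Cpr72Ec was measured on 20 of the 23 arrays and on 19 of the 21 that carried different strains, which covered all 13 strain pairs. The 3 arrays without a value were Canton S against itself, the replicate 1 array of Zimbabwe53 and Canton S and the replicate 1 array of Canton S and Oregon R. The first 2 of these share a title stem. The gene differed beyond 2-fold on 13 of the 19 arrays, and the median size over the 19 was 1.43 log2. On Zimbabwe53 against itself its value was 0.18 log2, or 1.13-fold.

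Pairs with St Louis showed the widest ratios of Cpr72Ec. The single array of Zimbabwe30 and St Louis stood at -3.75 log2 (13.4-fold), where 23 of 4987 features had a larger size. Zimbabwe53 and St Louis stood at -2.94 and -3.23 on their 2 arrays (7.66-fold and 9.41-fold). St Louis thus lay far to the positive side of both Zimbabwe strains, of Zimbabwe53 on arrays of both channel orders and of Zimbabwe30 on an array of 1 order.

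Canton S lay on the positive side of all 4 Zimbabwe strains. Its arrays with Zimbabwe30 gave -3.18 and -2.73 (9.07-fold and 6.62-fold), the 4th and 6th largest sizes on their arrays. Its arrays with Zimbabwe29 gave -0.80 and -1.26, the array with Zimbabwe2 gave -1.43, and the measured array with Zimbabwe53 gave -1.13. The separation was thus widest from Zimbabwe30. Hikone R lay on the same side of Canton S as the Zimbabwe strains: Canton S minus Hikone R was 1.59 and 2.17 (3.01-fold and 4.50-fold), of the opposite sign to Zimbabwe minus Canton S.

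Oregon R lay beside Canton S. The measured array of Canton S and Oregon R gave -0.40 (1.32-fold), smaller than the value on 18 of the 19 arrays. Zimbabwe2 minus Oregon R was -2.78 (6.87-fold). Zimbabwe53 minus Oregon R was -1.36 on the replicate 1 array and -2.96 on the replicate 2 array, 2.57-fold against 7.76-fold, the widest disagreement between arrays of a pair.

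In 3 further pairs every array gave a ratio within 2-fold. Zimbabwe30 minus Zimbabwe53 was -0.65 and -0.83, Zimbabwe53 minus Zimbabwe2 was -0.71, and Zimbabwe29 minus Hikone R was 0.79 (1.73-fold). Sizes on these 4 arrays were at most 1.78-fold.

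**Figure D1:**
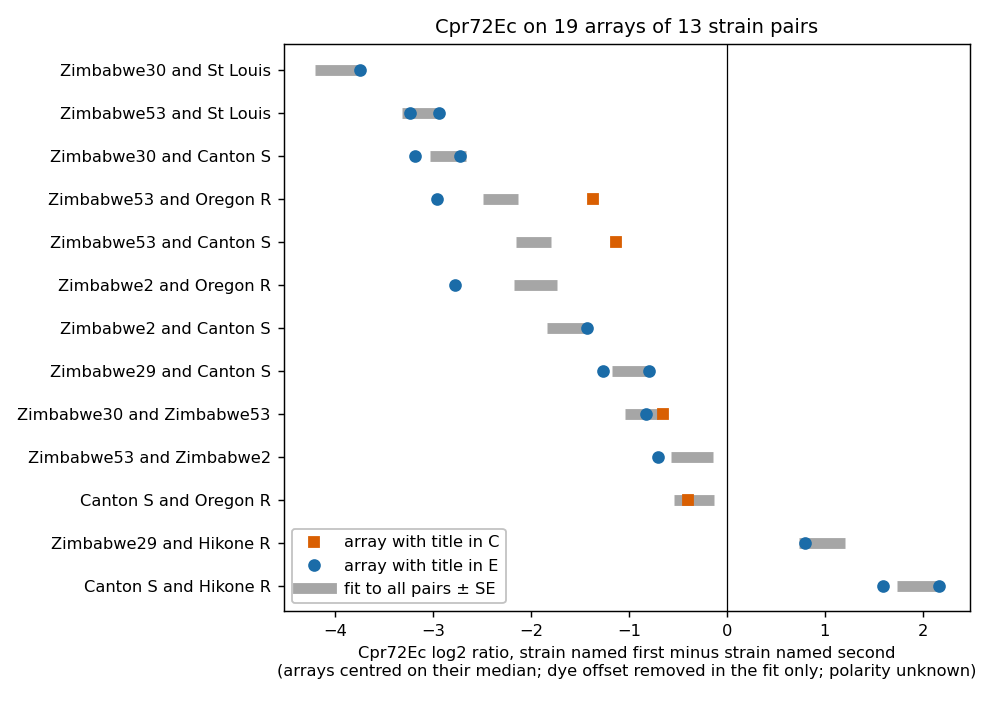
Cpr72Ec log2 ratio (x axis) on each of the 19 measured arrays of different strains, by strain pair (y axis), turned so that the strain named first is on top; squares and circles are arrays whose titles start with C or E, and grey bars are the fit to all pairs ± SE. The array of Zimbabwe30 and St Louis lies at -3.75, and the 2 arrays of Zimbabwe53 and Oregon R lie 1.59 apart.

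The value of this feature also differed with the channel order. In the 6 pairs measured in both channel orders, the mean of the 2 unturned values, which is 0 where both orders give the same size, was positive in all 6: 0.09 for Zimbabwe30 and Zimbabwe53, 0.15 for Zimbabwe53 and St Louis, 0.23 each for Zimbabwe30 and Zimbabwe29 with Canton S, 0.29 for Canton S and Hikone R, and 0.80 for Zimbabwe53 and Oregon R. Their mean, 0.30 log2 (1.23-fold), was subtracted as the dye offset of the feature. It was larger than the offset of 97.9% of features in the fit, whose median size was 0.077. Without Zimbabwe53 and Oregon R the mean was 0.20, close to the 0.18 on Zimbabwe53 against itself. In that pair, and in Zimbabwe30 and Zimbabwe53, the 2 arrays also differed in title letter, C or E. Channel order and title letter cannot be told apart there. After the subtraction, the SD between the arrays of a pair was 0.33 log2.

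A level for each strain was then fitted to the 13 pair values, with 0 as the mean of the 8 strains. Zimbabwe30 stood at -1.86 ± 0.14 (SE, 5 arrays), Zimbabwe53 at -0.99 ± 0.12 (8 arrays), Zimbabwe2 at -0.63 ± 0.18 (3 arrays) and Zimbabwe29 at 0.016 ± 0.19 (3 arrays). Hikone R stood at -0.95 ± 0.19 (3 arrays), Canton S at 0.99 ± 0.10 (9 arrays), Oregon R at 1.32 ± 0.16 (4 arrays) and St Louis at 2.12 ± 0.19 (3 arrays). Zimbabwe30 and St Louis thus formed the ends, 3.99 log2 apart (SE 0.22), or 15.9-fold.

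In order from the negative end, the strains ran Zimbabwe30, Zimbabwe53, Hikone R, Zimbabwe2, Zimbabwe29, Canton S, Oregon R and St Louis. Of the 7 steps between neighbours, 3 were within 2 SE: Hikone R against Zimbabwe53 (0.037 log2, SE 0.27), Zimbabwe2 against Hikone R (0.32, SE 0.30) and Oregon R against Canton S (0.33, SE 0.21). Neither of the first 2 of these was measured on a shared array. The steps beyond 2 SE were 0.87 from Zimbabwe30 to Zimbabwe53, 0.65 from Zimbabwe2 to Zimbabwe29, 0.97 from Zimbabwe29 to Canton S and 0.80 from Oregon R to St Louis. Those from Zimbabwe2 to Zimbabwe29 and from Oregon R to St Louis were not measured on a shared array either. Levels fell into a negative set of 4 strains, Zimbabwe29 near the mean, and a positive set of 3.

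The range did not rest on a single end strain. Without St Louis the other 7 strains spanned 3.18 log2, without Zimbabwe30 they spanned 3.12, and without both the remaining 6 spanned 2.31. The SE draws on the spread of all features, which lowers the SD of this feature to 0.33, against 0.45 from its own residuals. With its own SD the SE of the range was 0.30, and the step from Zimbabwe2 to Zimbabwe29 was within 2 SE (SE 0.41).

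**Figure D2:**
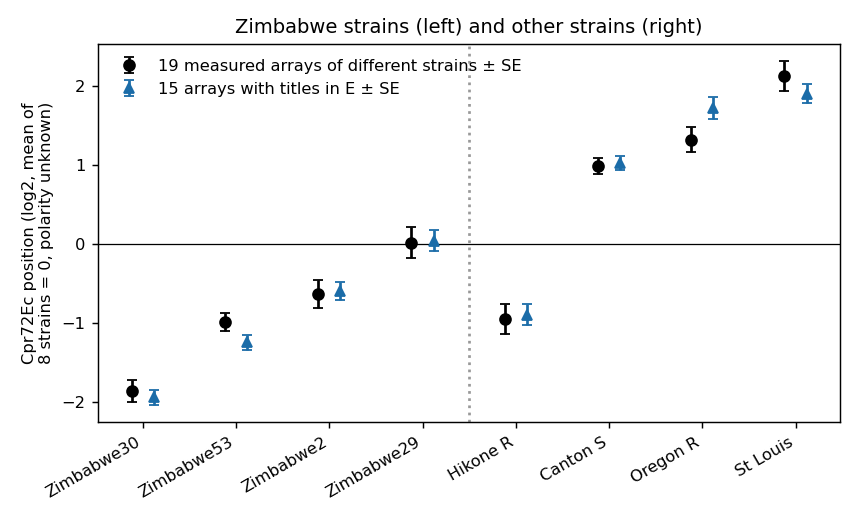
Fitted Cpr72Ec position (y axis, log2, mean of 8 strains at 0) of the Zimbabwe strains, left, and the other strains, right; circles are the fit to the 19 measured arrays and triangles the fit to the 15 arrays with titles in E, with SE bars. Hikone R, at -0.95, lies among the Zimbabwe strains, and Oregon R is the strain that differs most between the fits (1.32 and 1.72).

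Several strains were compared along closed loops, which lets each pair be checked against the others. Pair values here are those after the dye offset was subtracted. In 7 loops of 3 pairs, the sum of 2 pairs missed the direct value by 0.22 to 1.33 log2. Zimbabwe30 to Zimbabwe53 to St Louis summed to -3.83, against a direct value of -4.05 (-3.75 before the subtraction). The loop through Zimbabwe29, Canton S and Hikone R closed within 0.24. The 2 widest gaps, 1.30 and 1.33, both contained the array of Zimbabwe53 and Zimbabwe2.

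Each pair was also predicted from the other 12, and observed values here are those after the dye offset was subtracted. The median absolute difference between the observed and the predicted value was 0.28 log2. Zimbabwe30 minus St Louis was -4.05 observed and -3.94 predicted, and Zimbabwe53 minus St Louis was -3.09 observed and -3.19 predicted. The widest differences were in Zimbabwe53 minus Zimbabwe2 (1.12 log2, where 0.12 was predicted), Zimbabwe2 minus Oregon R (-2.48 observed, -1.50 predicted) and Zimbabwe53 minus Canton S (-1.43 and -2.21). The residual SD of Cpr72Ec exceeded that of 98.3% of features, so its pair values fitted together less closely than those of most features.

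Some of the disagreements lay between arrays with different first letters in their titles, whose meaning the labels do not give. The arrays of Zimbabwe2 with Zimbabwe53 and with Oregon R, which had the widest differences above, both have titles in E. Of the arrays of different strains, 15 have titles in E, all with a value, and 6 have titles in C, 4 of them with a value. Values of single arrays are given here after the dye offset of 0.30 was subtracted. In the fit to the E arrays alone, Zimbabwe53 minus Canton S was -2.28 ± 0.16 (SE), against -1.43 on the C array. Zimbabwe53 minus Oregon R was -2.97 ± 0.16 in the E fit and -1.66 on the C array, while its own E array gave -2.66. Canton S minus Oregon R was -0.70 ± 0.20 in the E fit and -0.10 on the C array. No E array held Canton S with Zimbabwe53 or with Oregon R, so the E values of these pairs come through other strains.

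For Zimbabwe30 minus Zimbabwe53 the C array gave the larger size after the dye offset was subtracted, -0.95. The E fit gave -0.70 ± 0.14 and its own E array -0.53. Before the subtraction the C array stood at -0.65 and the E array at -0.83, so which was larger depended on the offset. After the subtraction, sizes were thus smaller on the C array in 3 of 4 pairs. These 3 pairs join Zimbabwe53, Canton S and Oregon R with each other, so they are not separate observations. All 4 C arrays with a value carried Zimbabwe53 or Oregon R, and the part of the title letter in these differences was not tested. With E arrays alone the residual SD was 0.24, the dye offset 0.22 and the range 3.85 log2 (14.4-fold). Oregon R then stood at 1.72 ± 0.14 and St Louis at 1.90 ± 0.12, so that their SE bars overlapped.

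The comparison of origins asked whether Zimbabwe strains as a group differed from the others, with the strain as the unit. Cpr72Ec averaged -0.87 ± 0.78 in the Zimbabwe strains and 0.87 ± 1.31 in the other strains (SD, n = 4 each). The difference was -1.74 log2 (3.33-fold). In an exact permutation test over the 35 divisions of the 8 strains into 4 and 4, the two-sided p was 0.0857, where 0.0286 is the smallest possible, so the difference did not pass 0.05. Over all features, 0.248% passed the comparison of origins in limma (12 of 4841, and 2 to 17 when 1 array was left out), and 540 had an unadjusted p under 0.05. The groups overlapped: Hikone R lay between Zimbabwe53 and Zimbabwe2, and Canton S, Oregon R and St Louis lay on the positive side of all 4. Origin accounted for 46.4% of the sum of squares among the 8 levels.

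Against all features, the range of Cpr72Ec was larger than 99.6% of the 4841 in the fit, where the median range was 0.47 log2 (1.39-fold). It ranked 2nd of 1409 named genes after CG5953 (5.13 log2) and ahead of CG4757 (11.3-fold). Both neighbours in this order were chosen after their values were seen. Of the 16 features with a wider range, 11 lay in the last 2 of 20 grid rows of the print blocks and 1 had a gene symbol. Feature IDs, read as block, row and column, place Cpr72Ec in row 1. The 31 features of the last 2 rows with a range beyond 8-fold correlated negatively with Cpr72Ec over the 8 strain levels (r from -0.74 to -0.47), and the part of print position in its range was not tested. The 5 spots that touch it ranged over 0.40 to 0.94 log2, with r from 0.065 to 0.64.

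**Figure D3:**
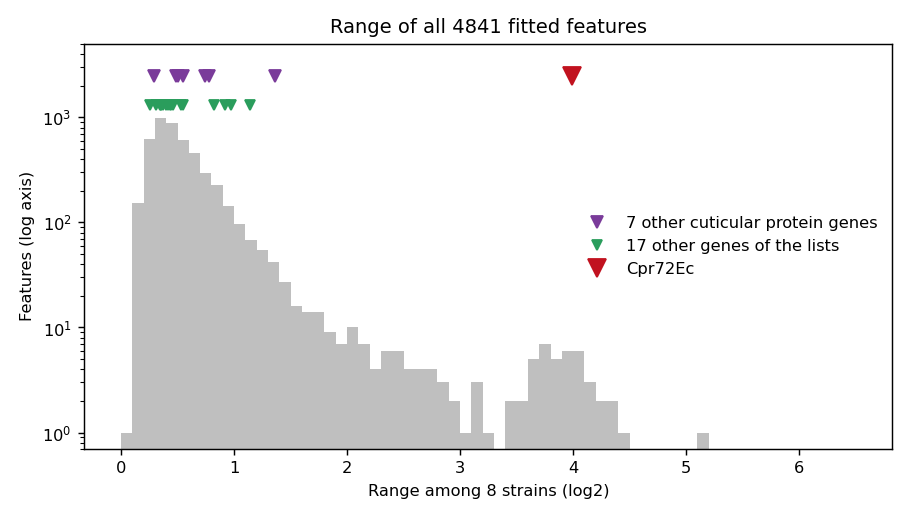
Number of features (y axis, log scale) by range among the 8 strains (x axis, log2) for all 4841 features of the fit, with triangles for Cpr72Ec and for genes of the cuticle, eye, wax and hormone lists. Cpr72Ec lies at 3.99, and the widest of the 24 other genes, obst-A, at 1.36.

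The genes most like Cpr72Ec in strain profile were sought among 72 named genes past the F test among strains with a range of at least 1 log2. Likeness was Pearson's r over the 8 fitted strain levels, which share arrays and RNA pools, so it is a description. On the same side came Prm, the paramyosin of muscle (r = 0.73), CG3548 (0.68), CG9297 (0.66), CG5770 (0.63) and CG12129 (0.63). Of the other muscle genes looked up, up had r = 0.53 and Strn-Mlck r = -0.24. The r of CG12129 was 0.092 without St Louis, where that gene stood at 1.62 log2 and no other strain passed 0.

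On the opposite side came Got2, the mitochondrial aspartate aminotransferase (r = -0.80), Acat1, a thiolase of ketone body and isoleucine metabolism (-0.73), CG11414 (-0.68), dpp, a BMP-type ligand (-0.65, measured on 13 arrays), and CG7888 (-0.61). Got2, with the largest r in size, spanned 1.35 log2 between St Louis and Zimbabwe2. These values moved when an end strain was left out. Without St Louis, r was 0.52 for Prm, 0.80 for CG9297, -0.88 for dpp and -0.38 for CG7888, and without Zimbabwe30 it was -0.85 for Got2 and -0.87 for Acat1. None of these 10 is a member of the cuticle lists.

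The corneal lens partners Crys, retinin and Cpr66D are not among the features named here, nor are the photoreceptor genes ninaE, norpA, trp, inaD, Arr1, Arr2 and chp. Of the eye list, 4 genes entered the fit and 2 passed the F test, as did 45.2% of all features tested. They were Galphaq, the G protein that couples rhodopsin to phospholipase C (1.47-fold, adjusted p = 0.0046 in limma), and rdgA, the diacylglycerol kinase of photoreceptors (1.33-fold, adjusted p = 0.038). inaE, a diacylglycerol lipase, and pros, a homeodomain factor, did not pass (adjusted p = 0.543 and 0.206). The second features of Galphaq (0.99 log2) and rdgA (0.32 log2) passed as well (adjusted p = 0.0101 and 0.0213). The ranges of these 4 were 0.31 to 0.55 log2, and their profiles correlated with that of Cpr72Ec between -0.077 and 0.27. The call of rdgA was lost without any 1 of 8 arrays (adjusted p up to 0.12, for replicate 1 of Canton S and Hikone R). That of Galphaq was lost only where no dye offset was subtracted (adjusted p = 0.105), among leaving out each array and the 5 other fits run for single genes, that one included.

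Of the other cuticular protein genes, 7 entered the fit and 3 passed the F test (42.9%, against 45.2% of all features and 38.5% of named genes). obst-A, a chitin-binding protein that organises the cuticle matrix, ranged over 1.36 log2 (2.57-fold, SE 0.18, adjusted p = 5.0e-04 in limma) between Zimbabwe2 and St Louis. Vajk3 ranged over 0.74 and Vajk4 over 0.50 log2 (adjusted p = 0.0023 and 0.022). The Rebers and Riddiford genes Cpr49Ac (0.49 log2, adjusted p = 0.316) and Lcp65Ag3 (0.30, adjusted p = 0.196) did not pass, nor did obst-B (0.78, adjusted p = 0.122) or TwdlW of the Tweedle family (0.54, adjusted p = 0.114). TwdlW passed without the array of Zimbabwe30 and St Louis (adjusted p = 0.0443). Vajk4 did not pass without that array (0.0819), the replicate 1 array of Canton S and Oregon R, or the replicate 2 arrays of Zimbabwe30 with Zimbabwe53 and with Canton S (adjusted p from 0.0568). Lcp65Ag3 has near-identical copies in the genome that a printed cDNA may not tell apart. The median range of the 7 was 0.54 log2, against 0.44 over all named genes.

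**Figure D4:**
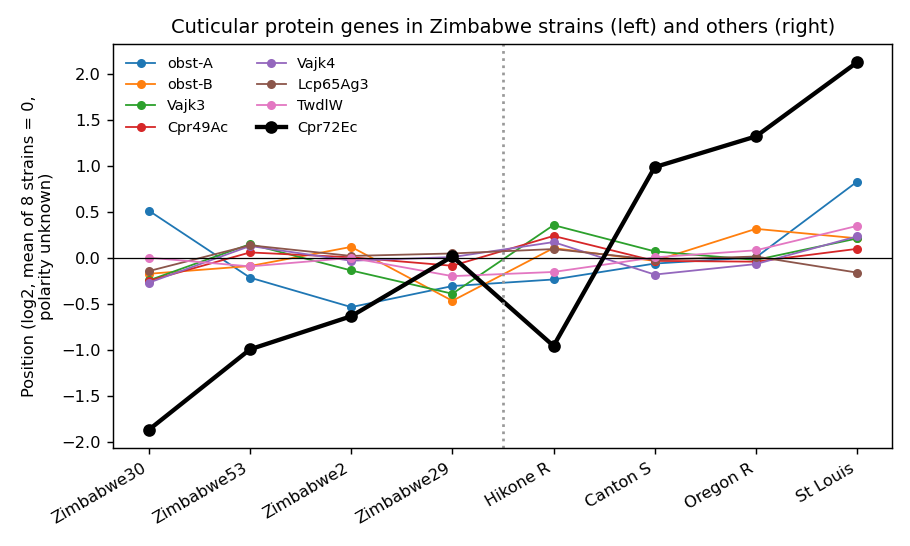
Fitted positions (y axis, log2, mean of 8 strains at 0) of Cpr72Ec (black) and the 7 other cuticular protein genes of the fit across the Zimbabwe strains, left, and the other strains, right. Cpr72Ec spans 3.99 log2, while the others span 0.30 to 1.36.

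Among genes of chitin synthesis and turnover, 5 of 8 passed, against 45.2% of all features. Idgf2, a chitinase-like secreted growth factor, ranged over 1.14 log2 between Hikone R and Zimbabwe53 (adjusted p = 7.7e-05 in limma), and its relative Idgf1 over 0.35 (adjusted p = 0.734). The other 4 that passed, grouped after their values were seen, act in the synthesis of UDP-N-acetylglucosamine, the sugar donor for chitin and for protein glycosylation: Gnpnat (0.97 log2, 1.96-fold), mmy (0.82), nst (0.53) and Gfat2 (0.46). Hikone R was the negative extreme of Gfat2 and nst and Zimbabwe2 the positive extreme of Gfat2 and mmy, and the r of the 4 with Cpr72Ec lay between -0.36 and 0.34. Cht7, a chitinase, and fdl, a hexosaminidase, did not pass (adjusted p = 0.232 and 0.342). mmy did not pass without the replicate 2 array of Zimbabwe53 and Canton S (adjusted p = 0.0521) or that of Zimbabwe53 and St Louis (0.0988). Gfat2 did not pass without either array of Canton S and Hikone R, the arrays of Zimbabwe2 and Oregon R or of Zimbabwe30 and St Louis, or the replicate 2 array of Zimbabwe53 or of Zimbabwe30 with Canton S (adjusted p up to 0.132).

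The wax and hormone lists held few measured genes. FASN1, a fatty acid synthase that feeds hydrocarbon synthesis, passed (0.92 log2, adjusted p = 3.4e-06 in limma), while bond, an elongase, and Cyp4g15 did not (adjusted p = 0.239 and 0.325). ftz-f1, a nuclear receptor that times cuticle genes, passed narrowly (0.40 log2, adjusted p = 0.042) and its second feature did not (adjusted p = 0.818). The call of ftz-f1 was lost without any 1 of 10 arrays (adjusted p up to 0.0907, without the replicate 2 array of Zimbabwe53 and Canton S). br, an ecdysone response factor, did not pass (adjusted p = 0.267). The tanning list, with stw as its only named gene, had no gene in the fit. Together 12 of the 24 list genes other than Cpr72Ec passed, beside 542 of 1408 named genes (38.5%) and 45.2% of all features.

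Along arm 3L, Cpr72Ec stands next to its relatives Cpr72Eb and Cpr72Ea in the Release 6 gene table, and neither is among the features named here. The 5 nearest measured genes on either side lie 12 to 115 protein-coding genes away, and 5 of these 10 passed the F test, against 45.2% of all features. Mipp1, an inositol polyphosphate phosphatase 21 genes away, ranged over 2.14 log2 (4.41-fold) between Zimbabwe53 and Oregon R (adjusted p = 7.8e-09 in limma). CG42514, 17 genes away, ranged over 1.15 log2, CG17027 over 0.92, CG12713 over 0.60 and CG33158 over 0.58. TyrRS, the tyrosyl-tRNA synthetase and the nearest at 12 genes, ranged over 0.39 (adjusted p = 0.0525), and Mbs, elg1, mbf1 and Tasp1 did not pass either (adjusted p from 0.182 to 0.705). TyrRS and Tasp1 passed without the replicate 1 array of Zimbabwe53 and Canton S (adjusted p = 0.03 and 0.00693), and TyrRS also without replicate 2 of Canton S and Hikone R or the replicate 1 array of Zimbabwe30 and Canton S. The profiles of the 10 correlated with that of Cpr72Ec between -0.71 and 0.68, and their median range was 0.59 log2.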

How the data were processed

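Per the labels, poly-A RNA (2 µg) of 1 pool per strain was copied to amino-allyl cDNA, coupled to cyanine 3 or cyanine 5, and hybridised to spotted cDNA arrays. The authors deposited 1 table of log ratios per feature and array, read here as log10. The sources used here do not give the scanner, spot filter, normalization, log base or channel order, and without spot intensities the number of arrays limits the precision. All columns belong to known samples.

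Values were rescaled to log2, and the median of each array was set to 0. The mean dye offset per feature was subtracted, arrays of a pair were turned alike and averaged, and strain levels were fitted by least squares weighted by arrays, with variances moderated by limma 3.58.1 in R 4.3.3. Features needed 10 of 13 pairs and 3 complete channel-exchanged pairs. The moderated F test had a Benjamini-Hochberg threshold of 0.05 over 4841 features. Origins were compared over all features in limma on the 8 strain levels, and for Cpr72Ec by exact permutation. The fit was tested on simulated data with independent noise per array, no shared title stems and strain ranges below that of Cpr72Ec.

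For a gene with several features, the most often measured one stands, and of equals the one with the smaller residual SD. Named genes are Cpr72Ec, list genes in the fit, the 5 nearest measured genes on each side and the 5 most alike genes of either sign past the F test. CG5953 and CG4757 were named after their values were seen. The gene and the lists were chosen with earlier results of these data known. Symbols matched through the Release 6 gene table. No sequence or protein of the gene was used here, and the search for the chitin-binding consensus was not run.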

Additional observations from a re-analysis of the deposited data

How the results depend on the processing

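Zimbabwe30 and St Louis stayed at the ends of Cpr72Ec under all 32 alternatives that gave it a value, and the whole order of strains was unchanged in 23. Some of the 32 could not change the order. The replicate 1 arrays of Canton S with Zimbabwe53 and with Oregon R held no value of Cpr72Ec, so leaving them out changed nothing. Dropping the filter on measured pairs refitted the same values, and reading values as log2 only rescaled them. The range of Cpr72Ec lay between 3.92 and 4.09 log2 when any 1 of 21 arrays was left out, 19 of them with a value of the gene. It was 1.20 when values were read as log2. The difference of origins lay between -1.81 and -1.63 log2 without 1 array. Zimbabwe2 moved to -0.96 without its array with Zimbabwe53 and to -0.38 without that with Oregon R, and Hikone R to -0.62 with arrays scaled to the same spread. With complete features only, where Cpr72Ec is missing, 1081 features passed the F test (62.6% of 1727) and 2 of 5 list genes. The E arrays alone were chosen after the data were seen, as was a median dye offset. From them 7 of 16 list genes passed the F test, beside 1820 of 3863 features. There nst, rdgA, ftz-f1 and the 3L gene CG12713 did not pass (adjusted p = 0.0602, 0.0687, 0.0919 and 0.0904 in limma), and Tasp1 did (5.6e-04). Gfat2 did not pass without centring, without the dye offset or with equal weights (adjusted p = 0.0547, 0.0853 and 0.0835), nor rdgA with equal weights (0.0703). TyrRS passed without the dye offset, with equal weights and with single arrays (0.0216, 0.0495 and 0.0256). Without 1 array, the list genes past the F test numbered 9 to 12, and all features past it 1754 to 2527. Features past the comparison of origins numbered 12, against 2 with scaled arrays and 2 to 17 without 1 array. They numbered 2 without the replicate 2 array of Zimbabwe29 or of Zimbabwe30 with Canton S. They numbered 3 without the replicate 1 array of Canton S with Oregon R or with Hikone R, the replicate 2 array of Zimbabwe53 and St Louis, or the single array of Zimbabwe53 and Zimbabwe2 or of Zimbabwe29 and Hikone R, and 6 without that of Zimbabwe30 and St Louis. The cause of these shifts was not tested beyond the fewer features or arrays. No paired analysis was possible across different strain pairs, because each strain was a single RNA pool. The labels also give no replicate numbers. Replicate 1 and replicate 2 here only tell apart the arrays of a strain pair. Within a pair, each array compared 2 strains directly, and arrays with the channels exchanged were matched to each other. Some arrays share a title stem, and with the stem as a random term (correlation 0.263) the range was 3.96 log2. Spot intensities were not used, so the part of low signal in the 3 missing values is unknown.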
